A study of Mus musculus with 8 samples.

Results

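The E2F and RB family genes described here are E2f1, E2f2, E2f3, E2f4, E2f7, E2f8, Rb1, Rbl1 and Rbl2. They were taken by gene symbol, with no measured value used in the choice, and are 9 of the 25124 genes in the table. RNA was sequenced from spleen CD4 T cells of reporter mice in which green fluorescence reports KLF2, a transcription factor of resting T cells, and red fluorescence reports FOXP3, the factor of regulatory T cells. All cells lacked FOXP3 and were CD44hi, which marks T cells that have met antigen, and they were sorted by the reporters into KLF2+ and KLF2- populations, so that KLF2+ and KLF2- name reporter levels. Each population was kept for 48 h without stimulus, or for 48 h with 2.5 micrograms/mL anti-CD3 and 1.25 micrograms/mL anti-CD28, antibodies that trigger the T cell receptor together with CD28. This made 4 groups of 2 libraries: KLF2+ unstimulated and KLF2+ stimulated, replicates 1 and 2, and KLF2- unstimulated and KLF2- stimulated, replicates 3 and 4. The sources used here give no mouse ages.

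E2F proteins bind promoters of genes for DNA replication and division, and the RB family proteins, called pocket proteins, bind E2Fs and silence those promoters in resting cells. After a T cell receives a mitogenic signal, cyclin-dependent kinases phosphorylate the pocket proteins and free the E2Fs. The activator E2Fs, several of which are themselves E2F targets, then drive entry into S phase, and the atypical E2F7 and E2F8 repress the same genes later in the cycle.

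The libraries differed in quality along with the groups. Exon reads numbered 21.03 M and 36.62 M (M, mega) in KLF2+ stimulated cells, 8.27 M and 17.85 M in KLF2+ unstimulated cells, 7.34 M and 8.62 M in KLF2- unstimulated cells, and 4.53 M and 2.99 M in KLF2- stimulated cells. The tags per library, 33.9 to 45.6 M, differed less, and the share of tags in exons was 62.04% and 80.31%, 23.57% and 43.87%, 18.1% and 19.55%, and 12.7% and 7.96% in the same order. Olfactory and vomeronasal receptor genes, which T cells are not known to transcribe, held 2.164 to 9.032 reads per kb of exon. At that density, background accounted for 0.4% and 1.25% of exon reads in KLF2+ stimulated cells and for 11.44% and 20.18% in KLF2- stimulated cells. All 8 listed CD4 T cell markers had reads in every library. Their sum was 7022.9 and 7467.9 CPM in KLF2+ stimulated cells, 4752.6 and 7151.4 CPM in KLF2+ unstimulated cells, 3492.2 and 3849.7 CPM in KLF2- unstimulated cells, and 2598.8 and 2436.2 CPM in KLF2- stimulated cells. The 13 myeloid markers summed to 904.2 and 1638.8 CPM in KLF2+ unstimulated cells and to between 39.2 and 91.2 CPM in the other 6 libraries, where S100a8 (in 2 libraries), C1qb and Fcgr1 were at 0 reads. CPM are reads at a common library depth after scaling by TMM, a factor that sets the typical gene equal between libraries. The 7 B cell markers summed to 128.9 to 231.5 CPM in KLF2+ and to 52.3 to 107.8 CPM in KLF2- cells, the 5 NK cell markers to 35.8 to 105 CPM and the 5 dendritic cell markers to 22 to 130.9 CPM, the last lowest in KLF2+ stimulated cells. The 2 CD8 T cell markers summed to 11.4 to 26.5 CPM and the 4 tested erythroid markers to 2.61 to 7.17 CPM. The part of these differences in the results below was not tested.

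Stimulated KLF2+ cells raised the activator E2F genes E2f1, E2f2 and E2f3 and the atypical E2f7 and E2f8. E2f8 rose 18.7-fold, E2f7 9.87-fold, E2f1 9.84-fold, E2f3 5.82-fold and E2f2 3.17-fold over unstimulated KLF2+ cells. In the edgeR quasi-likelihood fit these and E2f4, Rb1 and Rbl1 were called higher, at a Benjamini-Hochberg adjusted p under 0.05, which made 8 members higher and 0 lower, while 37.1% of the 19146 genes tested were called in either direction and 19.7% were called higher. Over the 9 members the median change on the log2 scale was 1.67, against -0.25 for all genes tested. All 9 had passed the filter on low counts. When TMM factors were taken from genes of at least 50 CPM, which moved the median of all genes to -0.76, E2f1, E2f2, E2f3, E2f7 and E2f8 were still called. E2f4 (0.46), Rb1 (0.05) and Rbl1 (0.23) were then no longer called, and Rbl2 was called lower (log2 fold change -0.58, edgeR adjusted p = 0.027). With the background subtracted as well, 3 members were called higher, E2f2, E2f7 and E2f8, against 28.7% of genes called in either direction. The count was 5 without KLF2+ unstimulated replicate 1, KLF2+ stimulated replicate 2 or either KLF2- unstimulated library, and in each of these cases the called members were E2f1, E2f2, E2f3, E2f7 and E2f8. Of all genes, 7096 were called in the full fit and 2097, 2427, 4259 and 4193 in these 4 cases.

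Stimulated KLF2- cells had 0 members called, as 0% of genes were called in that comparison by edgeR. At an unadjusted p under 0.05 edgeR had 4 members, E2f2, E2f7, E2f8 and, lower in stimulated cells, Rb1, among 2802 genes. DESeq2 called 1 member, E2f8 (adjusted p = 0.044), and 74 of the 19146 genes. The same 5 E2F genes had positive log2 fold changes there, between 0.64 ± 0.20 (SE) for E2f2 and 1.86 ± 0.57 for E2f8. Without KLF2- stimulated replicate 4, the library with the fewest exon reads, E2f8 was called (log2 fold change 2.55, edgeR adjusted p = 0.0091), and 107 of 19530 genes were called. Without replicate 3, 56 of 20130 genes were called, 54 of them lower in stimulated cells.

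The responses of the populations differed by test for 5 members, E2f1, E2f2, E2f4, E2f8 and Rb1, all more positive in KLF2+ cells. In the edgeR fit, 35.8% of genes were called for this difference and 20.3% were called more positive in KLF2+ cells. That call rested on the scaling and on single libraries. It held for 0 members with TMM factors from genes of at least 50 CPM, and for 0 after background subtraction, where 11.7% of genes were called. Relative to the median of all genes, which went from -0.09 to -1.04 on that scaling, the differences were 2.69 and 2.74 for E2f1, 1.12 and 1.12 for E2f2 and 1.26 and 1.28 for Rb1 in the first and second fit. A change of scaling moves all genes nearly alike, so subtracting the median cancels it, and both fits had to be close here. After background subtraction the same values were 2.35, 0.48 and 0.52. E2f1 was there at 2.15 without the median subtracted, and its adjusted p was 0.34 by edgeR. Without KLF2- unstimulated replicate 3 or replicate 4 it held for 0, without KLF2+ unstimulated replicate 1 or KLF2+ stimulated replicate 2 for 1, and without KLF2+ stimulated replicate 1 for 3. The number of all genes called, 6855 in the full fit, fell with it to 74, 70, 413 and 1806 in the first 4 of these cases, and was 7659 in the last. Without KLF2- stimulated replicate 4 it was 2512.

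Between the stimulated populations, 6 members were called higher in KLF2+ cells by edgeR, E2f1, E2f2, E2f4, E2f8, Rb1 and Rbl1, and 0 were called lower, against 75.2% of genes called and 35.5% called higher. The CD4 T cell markers moved the same way, with 8 of 8 called higher and a median of 1.6, above the members' median of 1.18. Of the 7 B cell markers 4 were called higher (median of the list 2.78). The others, Ms4a1, Cd22 and Pax5, were at -0.22, -0.29 and -1.46 without a call. Of the dendritic markers 1 was called higher and 4 lower (median -2.55), and of the myeloid markers 2 higher and 4 lower (median -1.01). Their part in the members' result was not tested. This comparison moved most with the scaling: the median of all genes went from a log2 fold change of -0.19 to -1.37 with factors from genes of at least 50 CPM. On that scaling 2315 of the 19146 genes were called higher and 11182 lower. There E2f1 (1.51) and E2f4 (0.57) were called higher, and Rb1 (-0.66) and Rbl2 (-1.18) were called lower in KLF2+ cells. Relative to the median of all genes, Rb1 stood at 0.71 and E2f1 at 2.81 in the first fit, and at 0.71 and 2.88 in the second. These had to be close, as a change of scaling moves all genes nearly alike. With the background subtracted, Rb1 stood at -0.25 and E2f1 at 2.49 relative to the median. After background subtraction E2f4 was called higher (0.52, edgeR adjusted p = 0.040) and Rb1 (-0.67) and Rbl2 (-1.25) lower, against 54.4% of genes called. Between the unstimulated populations 0 members were called by edgeR, against 2.32% of genes, and DESeq2 called 0. Rb1 was the 1 member with an unadjusted p under 0.05 in edgeR, among 3672 genes. With background subtraction, 4.02% of genes were called there, Rb1 among them.

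**Figure D1:**
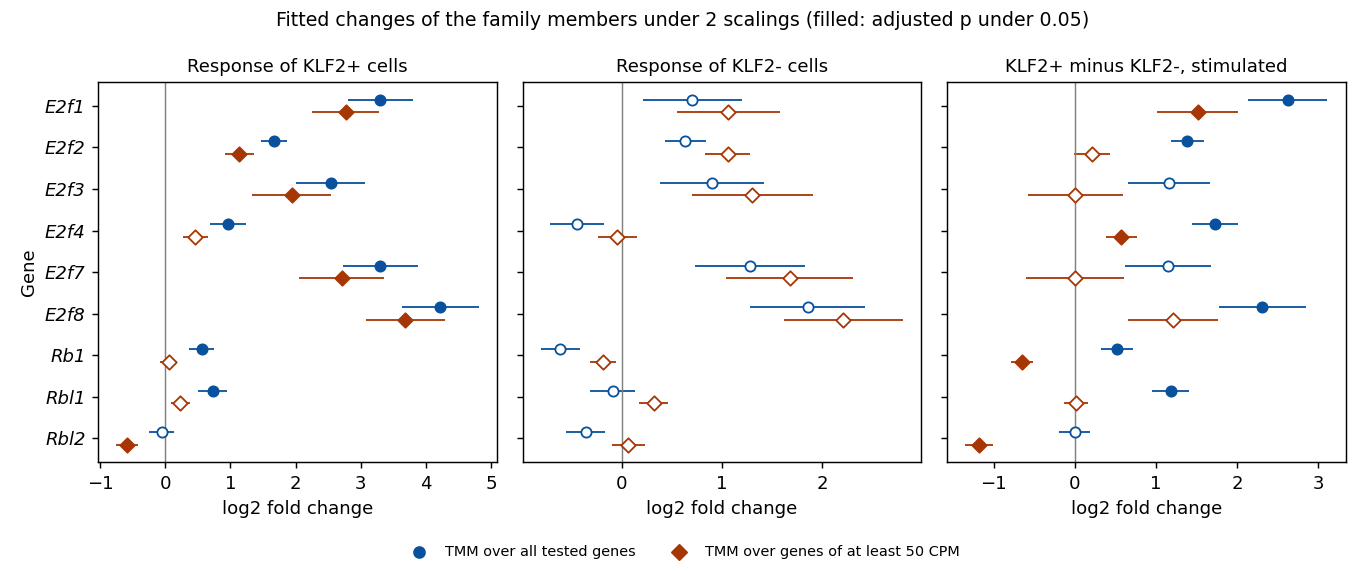
Fitted log2 fold changes (x axis) of the 9 members (y axis) in the response of KLF2+ cells, the response of KLF2- cells and between the stimulated populations, with bars of 1 SE. Circles are the fit scaled over all tested genes and diamonds the fit scaled over genes of at least 50 CPM, filled where the adjusted p was under 0.05. In the left panel E2f1, E2f2, E2f3, E2f7 and E2f8 are filled under both, and in the right panel Rb1 changes sign.

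Transcript levels per length are given as TPM, in which genes can be set beside each other within a library. Between groups the typical gene shifted on this scale. In limma on log2(TPM + 0.1), the median of all genes, KLF2+ minus KLF2-, was -1.54 between stimulated and -0.46 between unstimulated populations. On stimulation it was -0.81 in KLF2+ and 0.41 in KLF2- cells. The share of all genes whose groups lay apart in TPM was not counted, so separations given below are descriptions. E2f4, the E2F that works with pocket proteins as a repressor, was the most abundant E2F member in all 8 libraries. It stood at 85.8 and 78 TPM in KLF2+ unstimulated cells, 90.5 and 109.2 TPM in KLF2+ stimulated cells, 81.2 and 89.1 TPM in KLF2- unstimulated cells, and 94.6 and 65.9 TPM in KLF2- stimulated cells. The unstimulated groups overlapped, and so did the stimulated groups. The other E2F members reached at most 17.8 TPM. In both unstimulated groups the order of the means was E2f4, E2f2, E2f1, E2f3, E2f8 and E2f7, and in KLF2+ cells neighbours from E2f1 downward overlapped. In stimulated KLF2+ cells it was E2f4, E2f1, E2f8, E2f2, E2f3 and E2f7, with no overlap between neighbours. In stimulated KLF2- cells E2f2 came second by its mean, and E2f1 and E2f8 overlapped. E2f2 and E2f1 overlapped too, at 11 and 11.1 TPM in replicate 3. In replicate 4 E2f1 and E2f8 were at or under background, so that library gives no order of these genes. Among the RB family, Rbl2 was highest in all 8 libraries, and in unstimulated KLF2+ cells Rb1 (21.7 and 23.9 TPM) and Rbl1 (18.6 and 19.2 TPM) lay close to each other.

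**Figure D2:**
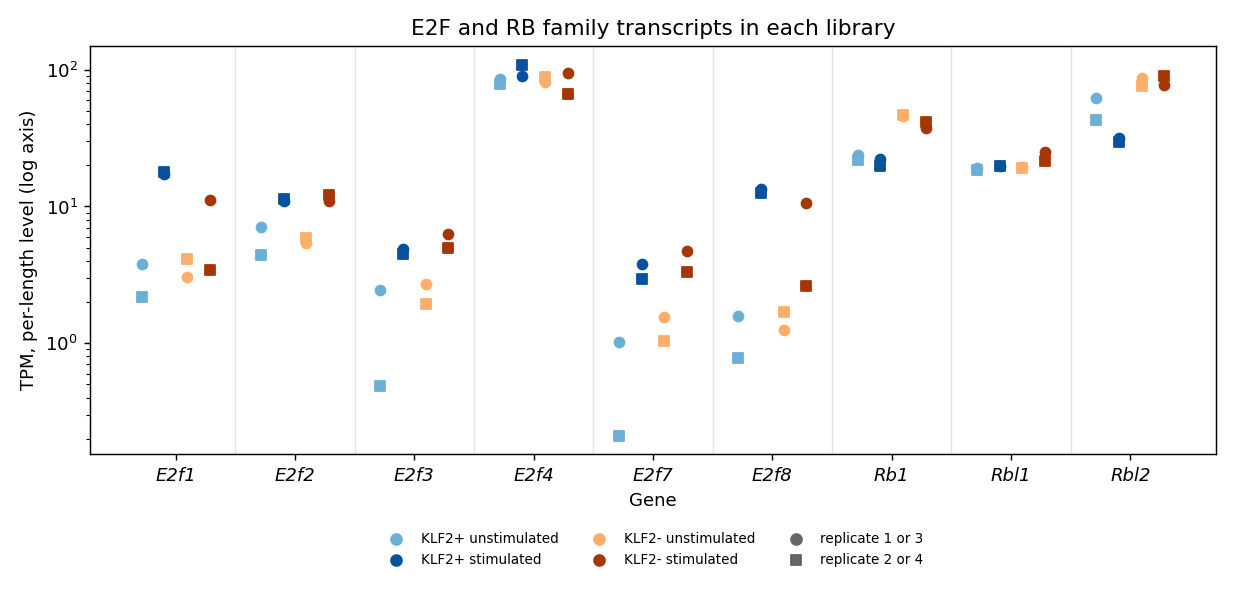
TPM (y axis, log scale) of each member (x axis) in the 8 libraries, coloured by group, with the marker showing the replicate. E2f1 reaches 17.3 and 17.8 TPM in KLF2+ stimulated cells against 2.18 to 4.15 TPM in the 4 unstimulated libraries, and E2f4 stays between 65.9 and 109.2 TPM.

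E2f1, the activator E2F best known for promoting S phase entry and also apoptosis, was at 3.77 and 2.18 TPM in KLF2+ unstimulated cells and at 17.3 and 17.8 TPM in KLF2+ stimulated cells. In KLF2- cells it was at 3.04 and 4.15 TPM unstimulated and at 11.1 and 3.41 TPM stimulated. The KLF2+ stimulated libraries were thus above all others, the unstimulated groups overlapped, and the stimulated KLF2- replicates stood apart, the second of them within the unstimulated range. Its log2 fold change was 3.30 ± 0.50 (SE; edgeR adjusted p = 0.0024) in KLF2+ cells and 0.70 ± 0.50 (edgeR adjusted p = 0.48) in KLF2- cells. In KLF2- cells it was 1.35 without stimulated replicate 4 and -0.69 without stimulated replicate 3. After background subtraction the KLF2+ value was 3.21 with an edgeR adjusted p of 0.067. The gene lies on chromosome 2 (mm10, chr2:154559400-154569892, minus strand), and its RefSeq span overlaps that of Necab3 by 7 bases, though the counted spans share 0 bases.

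E2f2, an activator E2F whose loss is known to affect T cell proliferation, was at 7.13 and 4.41 TPM in KLF2+ unstimulated cells and 10.9 and 11.3 TPM in KLF2+ stimulated cells. In KLF2- cells it was at 5.41 and 5.89 TPM unstimulated and 11 and 12.1 TPM stimulated. All 4 stimulated libraries were above all 4 unstimulated ones, and on this per-length scale the stimulated populations overlapped. Background was expected to give 16.4% and 9.03% of its reads in KLF2+ unstimulated and 1.72% and 0.527% in KLF2+ stimulated libraries. In KLF2- cells the shares were 24.3% and 20.2% unstimulated and 18% and 30.2% stimulated. KLF2- stimulated replicate 4 had 142.5 reads, 43 expected from background, beside 169 and 217 reads in the KLF2- unstimulated libraries. The log2 fold change was 1.67 ± 0.20 (SE; edgeR adjusted p = 0.0009) in KLF2+ cells and 0.64 ± 0.20 (edgeR adjusted p = 0.27) in KLF2- cells. The KLF2+ call held in all 17 alternative analyses, with values between 0.87 and 1.76.

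E2f3, the third activator, had 2.46 and 0.483 TPM in KLF2+ unstimulated cells, 4.88 and 4.49 TPM in KLF2+ stimulated cells, 2.72 and 1.94 TPM in KLF2- unstimulated cells and 6.25 and 4.96 TPM in KLF2- stimulated cells. Every stimulated library was above every unstimulated one, and the lowest value was that of KLF2+ unstimulated replicate 2. KLF2- stimulated replicate 4, at 4.96 TPM, had 61 reads, of which 45.1 were expected from background. The KLF2- unstimulated libraries had 89 and 75 reads, so the TPM of replicate 4 does not show a rise of E2f3. The KLF2+ response was 2.54 ± 0.53 (SE; edgeR adjusted p = 0.008) on the log2 scale and was called in 16 of 17 alternatives, the exception being background subtraction (3.00, edgeR adjusted p = 0.067). Without KLF2+ unstimulated replicate 2 it was 1.89, and without replicate 1 it was 3.71.

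The atypical E2f7 and E2f8, repressors that act without a DP partner, had the lowest mean TPM of the members before stimulation. In KLF2+ unstimulated replicate 2, E2f3 (0.483 TPM) lay below E2f8. E2f8 was at 1.58 and 0.786 TPM in KLF2+ unstimulated cells, 13.5 and 12.6 TPM in KLF2+ stimulated cells, 1.25 and 1.7 TPM in KLF2- unstimulated cells, and 10.6 and 2.64 TPM in KLF2- stimulated cells. As with E2f1, the KLF2- stimulated replicates differed widely. E2f7 was at 1.02 and 0.21 TPM in KLF2+ unstimulated cells, 3.77 and 2.95 TPM in KLF2+ stimulated cells, 1.55 and 1.03 TPM in KLF2- unstimulated cells, and 4.74 and 3.34 TPM in KLF2- stimulated cells. The stimulated populations overlapped for E2f7, and the counts of several libraries are set against background in the next paragraph. The KLF2+ responses were 4.22 ± 0.59 (SE) for E2f8 and 3.30 ± 0.58 for E2f7 on the log2 scale, with edgeR adjusted p of 0.0016 and 0.0041. Both held in all 17 alternatives, between 2.71 and 5.20 for E2f8 and between 1.47 and 10.91 for E2f7. The 10.91 (SE 2.88) came from background subtraction, which left no reads of E2f7 in KLF2+ unstimulated cells.

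The unstimulated levels of these genes lay near the background. For E2f7, 41.5 and 20 reads were counted in KLF2+ unstimulated cells where the receptor genes' density gives 47.4 and 37.8 for its length, so its fold change in KLF2+ cells compares a measured level with one not separated from background. For E2f8 the 4 unstimulated libraries had 29.5 to 50 reads against 25.3 to 33.2 expected from background. For E2f3, the reads expected from background were 47.4% and 82.3% of those counted in KLF2+ unstimulated cells, 48.3% and 61.3% in KLF2- unstimulated cells and 74% in KLF2- stimulated replicate 4. The 82.3% was 35 expected reads beside 42.5 counted. KLF2- stimulated replicate 4 was at or under background for E2f1 (22.5 reads, 24.2 expected), E2f7 (44.5 reads, 48.8 expected) and E2f8 (23.5 reads, 32.6 expected). In that library a response of these 3 genes could not be told from background. In KLF2+ stimulated cells the same genes had 428 to 1764.5 reads, of which at most 4.96% was expected from background. E2f4, Rb1, Rbl1 and Rbl2 were well above background everywhere, with expected background shares of at most 5.56%, 8.77%, 17% and 4.08%.

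**Figure D3:**
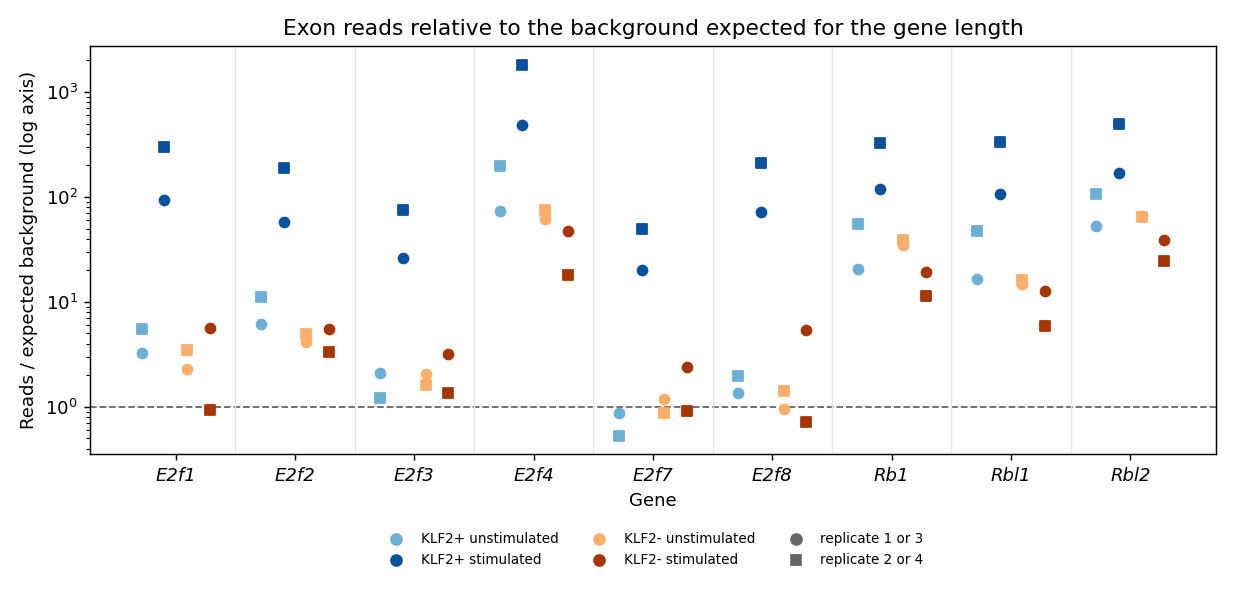
Exon reads of each member divided by the reads expected from the receptor-gene background over its length (y axis, log scale), by gene (x axis) and library. The dashed line marks reads equal to background, near which E2f7 and E2f8 lie in unstimulated cells, and KLF2+ stimulated libraries are highest for every member.

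Of the pocket proteins, Rb1, the retinoblastoma protein gene, was at 23.9 and 21.7 TPM in KLF2+ unstimulated cells and 22.3 and 19.7 TPM in KLF2+ stimulated cells. It was at 45.8 and 46.7 TPM in KLF2- unstimulated cells and 37.6 and 41.8 TPM in KLF2- stimulated cells. All 4 KLF2- libraries were above all 4 KLF2+ libraries, and the KLF2+ groups overlapped. In limma on log2(TPM + 0.1) the difference between stimulated populations was -0.92, against a median of -1.54 for all genes. On the CPM scale the unstimulated order was the same, 92.1 and 115.2 CPM in KLF2+ against 158.5 and 166.5 CPM in KLF2- cells. The stimulated order turned, with 161.1 and 143.7 CPM in KLF2+ against 110.6 and 101.9 CPM in KLF2- cells. Between unstimulated populations the log2 fold change, KLF2+ minus KLF2-, was -0.65 ± 0.19 (SE; edgeR adjusted p = 0.13), and it was called lower in 5 of 16 alternatives, with background subtraction at -0.99 (edgeR adjusted p = 0.012). Between stimulated populations it was 0.52 ± 0.19 (edgeR adjusted p = 0.034) and turned to -0.66 with factors from genes of at least 50 CPM and to -0.67 with background subtraction, both called. The spans of Lpar6, on the opposite strand, and Mir687 lie inside Rb1, and the sources used here do not give the strand setting of the counting.

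Rbl1, which encodes p107 and is itself a classical E2F target, was nearly level per length. It had 19.2 and 18.6 TPM in KLF2+ unstimulated cells, 19.8 and 19.7 TPM in KLF2+ stimulated cells, 19.4 and 19.1 TPM in KLF2- unstimulated cells, and 25.2 and 21.5 TPM in KLF2- stimulated cells. The highest values were those of the KLF2- stimulated libraries. In CPM it rose in KLF2+ cells from 77.7 and 103.8 to 149.7 and 151.6, with a log2 fold change of 0.73 ± 0.22 (SE; edgeR adjusted p = 0.031). That call held in 7 of 17 alternatives and not with factors from genes of at least 50 CPM (0.23, edgeR adjusted p = 0.20).

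Rbl2, which encodes p130, the pocket protein that accumulates in quiescent cells, was at 61.9 and 42.6 TPM in KLF2+ unstimulated cells and 31.9 and 29.5 TPM in KLF2+ stimulated cells. It was at 87.3 and 76.2 TPM in KLF2- unstimulated cells and 77.5 and 89.9 TPM in KLF2- stimulated cells. The KLF2+ stimulated libraries were lowest, all KLF2- libraries were above all KLF2+ libraries, and the KLF2- groups overlapped. By limma the median of all genes on log2(TPM + 0.1) was -1.54 between stimulated populations and -0.81 in the KLF2+ response. Over all alternatives Rbl2 reached at lowest -1.44 and -0.74 there. Between unstimulated populations it reached -0.67, where that median was -0.46. The fitted KLF2+ response was -0.06 ± 0.19 (SE; edgeR adjusted p = 0.81), and it was called lower in 4 of 17 alternatives, among them the fit with factors from genes of at least 50 CPM. Reads of Rbl2 and Aktip, a gene on the opposite strand whose counted span shares 346 bases with it, could not be told apart there if strand was not used. In bulk RNA, fewer cells of a type and less RNA per cell cannot be told apart, for Rbl2 as for the other members.

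Ratios of genes within a library do not depend on the scaling between libraries, though they do depend on background. They are given as values, and no test was run on them. Rbl1 was at 0.31 and 0.438 of Rbl2 in KLF2+ unstimulated cells and at 0.619 and 0.669 in KLF2+ stimulated cells, both above every other library. In KLF2- cells the ratio was 0.222 and 0.25 unstimulated and 0.325 and 0.239 stimulated, which overlapped. E2f1 stood at 0.0439 and 0.028 of E2f4 in KLF2+ unstimulated cells and at 0.191 and 0.163 in KLF2+ stimulated cells. In KLF2- cells that ratio was 0.0375 and 0.0466 unstimulated and 0.118 and 0.0517 stimulated. E2f8 stood at 0.0184 and 0.0101 of E2f4 unstimulated and 0.149 and 0.116 stimulated in KLF2+ cells, and at 0.0154 and 0.0191 unstimulated and 0.112 and 0.0401 stimulated in KLF2- cells. The second KLF2- stimulated value of each pair is from replicate 4, where E2f1 and E2f8 were at or under background, so it gives no level of them. In KLF2+ cells the mean log2 shift on stimulation was 2.34 for E2f1 to E2f4, 2.73 after background subtraction and 1.98 from TPM + 1, and for E2f8 to E2f4 it was 3.27, 4.71 and 2.43. E2f4 was 1.39 and 1.83 times Rbl2 in KLF2+ unstimulated cells and 2.84 and 3.7 times in KLF2+ stimulated cells. In KLF2- cells it was 0.931 and 1.17 times unstimulated and 1.22 and 0.733 times stimulated, below every KLF2+ library.

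By share of the family, Rbl2 made up 58.9% and 51.3% of RB family TPM in KLF2+ unstimulated cells and 43.1% and 42.8% in KLF2+ stimulated cells. In KLF2- cells the shares were 57.2% and 53.7% unstimulated and 55.2% and 58.7% stimulated, which overlapped. The summed RB family was lower in KLF2+ cells, 105 and 82.9 TPM unstimulated and 74 and 68.9 TPM stimulated, than in KLF2- cells, where it lay between 140.3 and 153.2 TPM. The median of all genes on log2(TPM + 0.1) was lower in KLF2+ cells too, by limma -0.46 unstimulated and -1.54 stimulated. E2f4 gave 84.3% and 90.6% of the TPM of the 6 E2F members in KLF2+ unstimulated cells and 64.3% and 68.9% in KLF2+ stimulated cells. The KLF2- values were 85.3% and 85.8% unstimulated and 68.4% and 71.3% stimulated, the last in the library where E2f1, E2f7 and E2f8 were at or under background.

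**Figure D4:**
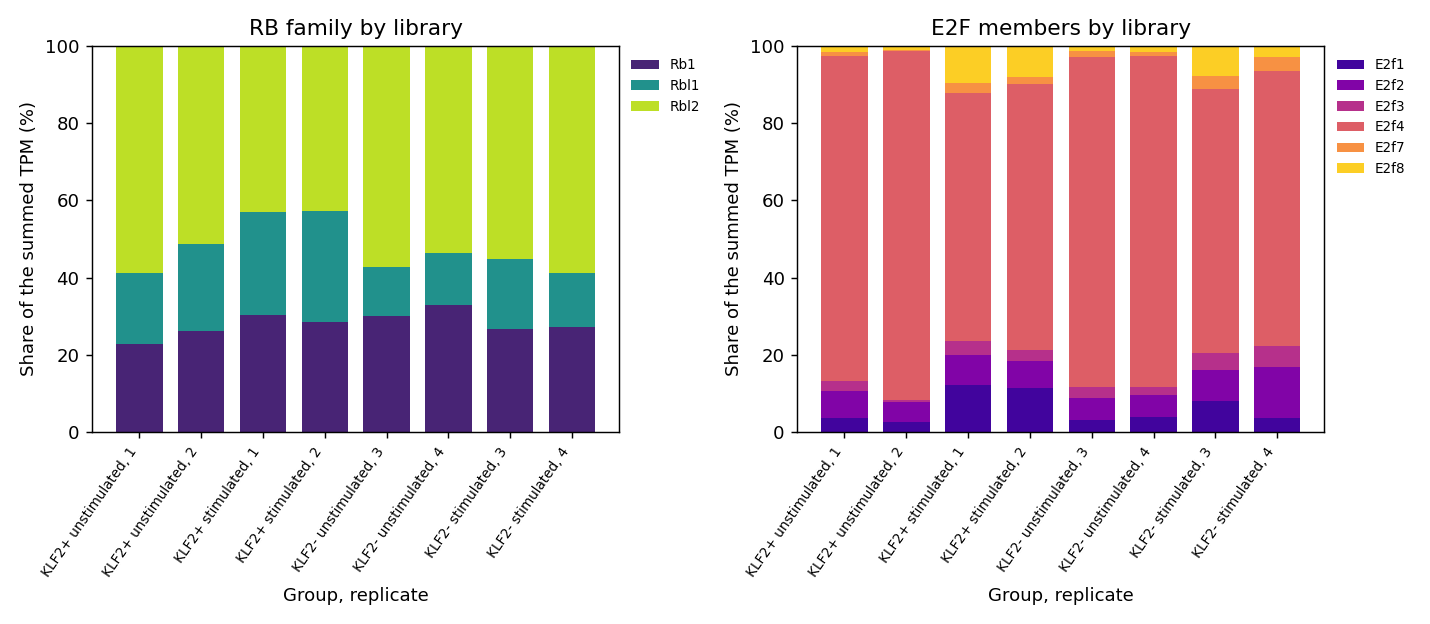
Share of the summed TPM (y axis, percent) of the 3 RB family genes (left) and the 6 E2F members (right) in each library (x axis, group and replicate). Rbl2 takes 43.1% and 42.8% in KLF2+ stimulated libraries and at least 51.3% elsewhere, and E2f4 takes 64.3% to 71.3% in the 4 stimulated libraries, the 71.3% being from KLF2- replicate 4, where E2f1, E2f7 and E2f8 were at or under background.

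Promoter sequence is shown because E2F genes and Rbl1 are known to be regulated by E2F themselves. RefSeq windows (GRCm38.p6, the build mm10 is made from) from 250 bases before to 50 after the start were present for 7 of the 9 members and began at the counted transcript's start for 5. The E2F motif was searched as TTTCCCGC, TTTGGCGC, TTTCGCGC or TTTGCCGC, and the CHR element, bound by the MuvB complex, as TTTGAA, both on either strand. Of 32851 windows, 2.26% held an E2F match and 17.9% a CHR match. An E2F match was present in 4 of those 5 windows, E2f2, E2f3, E2f7 and Rbl1, and absent from Rbl2. The windows of E2f1 and E2f8, and further windows of E2f2 and E2f3, began at other starts and held 0 E2F matches. The 250 bases before the start are printed 5′ to 3′ on the gene's strand, with matches in capitals, at chr13:29986064-29986313 (minus strand) for E2f3, chr10:110745189-110745438 (plus) for E2f7, chr2:157204535-157204784 (minus) for Rbl1 and chr8:91069807-91070056 (plus) for Rbl2.
E2f3: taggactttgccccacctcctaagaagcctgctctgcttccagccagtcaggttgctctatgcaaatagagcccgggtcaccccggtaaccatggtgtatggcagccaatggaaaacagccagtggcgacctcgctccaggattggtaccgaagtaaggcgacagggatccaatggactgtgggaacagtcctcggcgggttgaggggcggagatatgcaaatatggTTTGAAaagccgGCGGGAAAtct
E2f7: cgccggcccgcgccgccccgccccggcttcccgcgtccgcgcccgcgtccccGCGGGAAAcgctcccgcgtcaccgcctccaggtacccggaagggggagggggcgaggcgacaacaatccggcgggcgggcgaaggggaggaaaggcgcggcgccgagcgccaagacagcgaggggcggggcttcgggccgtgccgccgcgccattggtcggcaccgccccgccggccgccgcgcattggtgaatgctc
Rbl1: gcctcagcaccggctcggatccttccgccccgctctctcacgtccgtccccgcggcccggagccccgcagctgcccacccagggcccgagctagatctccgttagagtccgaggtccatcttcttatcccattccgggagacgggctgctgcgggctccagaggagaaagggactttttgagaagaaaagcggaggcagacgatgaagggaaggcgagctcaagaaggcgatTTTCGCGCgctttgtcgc
Rbl2: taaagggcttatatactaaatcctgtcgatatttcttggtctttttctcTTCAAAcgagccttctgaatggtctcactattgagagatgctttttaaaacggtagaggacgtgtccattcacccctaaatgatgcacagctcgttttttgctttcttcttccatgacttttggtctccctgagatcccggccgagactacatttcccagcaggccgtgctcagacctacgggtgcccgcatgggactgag
In E2f3 the capitals mark a CHR match at -23 to -18 and, after a short gap, an E2F match on the opposite strand at -11 to -4. In E2f7 they mark an E2F match at -198 to -191, and in Rbl1 one at -18 to -11. In Rbl2 they mark a CHR match at -201 to -196. The E2f2 match lies after the start, at +40 to +47, and is shown in 30 bases.
E2f2: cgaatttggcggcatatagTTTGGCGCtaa
A match of letters is a description and says nothing of binding in these cells.

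The partners of the members were read from lists. Of the other E2F and DP genes, E2f5, E2f6, Tfdp1 and Tfdp2, 2 of 4 were called higher in stimulated KLF2+ cells by edgeR and 0 lower. Of all genes 19.7% were called higher there, and 37.1% in either direction. Tfdp1, which encodes DP1, the dimer partner through which E2F1 to E2F6 bind DNA, was at 86.8 and 105.2 CPM unstimulated and 811.1 and 725.6 CPM stimulated in KLF2+ cells, a log2 fold change of 3.00 ± 0.40 (SE; edgeR adjusted p = 0.0013). In KLF2- cells it was at 110.4 and 102.5 CPM unstimulated and 178.4 and 66.7 CPM stimulated, on both sides of the unstimulated libraries. The difference in response was called for Tfdp1 in the first fit (2.79, edgeR adjusted p = 0.016) and after background subtraction (1.96, edgeR adjusted p = 0.040). E2f6, a repressor that does not bind pocket proteins, was the second called gene in KLF2+ cells (1.03), and was not called after background subtraction (0.60, edgeR adjusted p = 0.14). Tfdp2 and E2f5 were not called in that response.

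The MuvB core and its activators, which hold cell cycle genes silent with pocket proteins or activate them with B-MYB and FOXM1, had 5 of 7 genes called higher in KLF2+ stimulated cells. Of all genes 19.7% were called higher. Mybl2, which encodes B-MYB, went from 10.4 and 7.49 CPM to 131.1 and 120.8 CPM, a log2 fold change of 3.83 ± 0.27 (SE; edgeR adjusted p = 0.00015). Foxm1 went from 7.2 and 3.71 CPM to 83.8 and 78.4 CPM (3.92 ± 0.40, edgeR adjusted p = 0.00046). Lin54 (0.91) and Rbbp4 (1.04) were also called. After background subtraction 3 of 7 were called, Mybl2, Foxm1 and Rbbp4, against 28.7% of all genes. In KLF2- cells 0 of 7 were called by edgeR, 2 had an unadjusted p under 0.05 and DESeq2 called 2. Of all 19146 genes, edgeR called 0, 2802 had such a p in edgeR and DESeq2 called 74. The list's median log2 fold change there was 0.02, against 0.06 for all genes. Rbbp4, the most abundant of the 7, was at 464.4 and 429.5 CPM unstimulated and 400.6 and 294.5 CPM stimulated, lower without overlap. Mybl2 was at 12.8 and 11 CPM unstimulated and 31.5 and 21.8 CPM stimulated, higher without overlap. Its reads were 110 and 108.5 unstimulated and 191 and 100.5 stimulated. The share of all genes whose groups lay apart in CPM was not counted, so these are descriptions.

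Of the cyclins, kinases and inhibitors that set pocket protein phosphorylation, 14 of 15 were tested, and in KLF2+ stimulated cells 10 were called higher and 2 lower. Of all genes 19.7% were called higher and 37.1% in either direction. Ccne2 (3.15 ± 0.40, SE) and Ccne1 (3.84 ± 0.62), the E cyclins that partner CDK2, and Cdk6 (1.89 ± 0.32), a kinase partner of the D cyclins, were among those higher, with edgeR adjusted p of 0.0011, 0.0029 and 0.0037. Cdkn2c, an inhibitor of CDK4 and CDK6, was also higher (2.31 ± 0.40, edgeR adjusted p = 0.0038). The 2 lower genes were Ccnd1, a D cyclin (-1.71), and Cdkn1b, the inhibitor p27 linked to quiescence (-1.12). They are named because the count is small. The value of Ccnd1 rested on few reads, 69.5 and 87.5 in KLF2+ unstimulated and 16 and 66 in KLF2+ stimulated libraries. Cdkn1b was at 26.7 and 30.9 CPM in KLF2+ unstimulated cells and 11.8 and 14.7 CPM in KLF2+ stimulated cells. In KLF2- cells it was at 20.2 and 20.9 CPM unstimulated and 6.26 and 10 CPM stimulated, without a call (-1.35, edgeR adjusted p = 0.27). With factors from genes of at least 50 CPM, 10 were called higher and 2 lower, and after background subtraction 10 and 1. Of all genes, 2144 were higher and 6111 lower of 19146, and 2070 and 2319 of 15281. In unstimulated cells 1 of the 14 was called, Cdkn2b, the inhibitor p15, against 2.32% of all genes. It was lower in KLF2+ cells (2.25 and 4.24 CPM against 29.1 and 29.2 CPM), at -3.14 (edgeR adjusted p = 0.0088).

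In the KLF2+ response 19.7% of all genes were called higher, with a median of -0.25 on the log2 scale. Numbers of all genes called when a library was left out are given with the members above. The 30 listed E2F target genes, of DNA replication and nucleotide synthesis, were all called higher in KLF2+ stimulated cells, and their median was 3.26. Among those with the smallest p-values were Mcm10 (4.25), Orc1 (3.33) and Uhrf1 (4.08). With factors from genes of at least 50 CPM, where 8255 of 19146 genes were called, all 30 remained called. After background subtraction, where 28.7% of genes were called, 27 did. The count was 21 without KLF2+ unstimulated replicate 1. Their summed level was 1696 and 2054 CPM in KLF2+ unstimulated cells, 13673 and 12481 CPM in KLF2+ stimulated cells, 1397 and 1345 CPM in KLF2- unstimulated cells, and 2932 and 996 CPM in KLF2- stimulated cells. The KLF2- stimulated libraries thus lay on both sides of the unstimulated ones. In KLF2- cells edgeR called 0 of all 19146 genes, 2802 had an unadjusted p under 0.05 and DESeq2 called 74. Of the 30 targets, 0 were called by edgeR, 14 had such a p and DESeq2 called 2, and their median was 0.89. There 12 were called without KLF2- stimulated replicate 4 and 1 without replicate 3. All 30 were called higher in KLF2+ than in KLF2- stimulated cells (median 2.69), and 22 after background subtraction. Of all genes 35.5% were called higher in that comparison (median -0.19), and 2575 of 15281 after background subtraction. Of all genes, 35.8% were called for the difference in response. The share was 11.7% after background subtraction, and 6582 of 19146 genes were called with factors from genes of at least 50 CPM. The difference in response was called for 25 of 30 targets, for 11 on that scaling and for 3 after background subtraction. It was called for 6 without KLF2+ unstimulated replicate 1, for 1 without KLF2- unstimulated replicate 3 and for 0 without KLF2- unstimulated replicate 4.

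**Figure D5:**
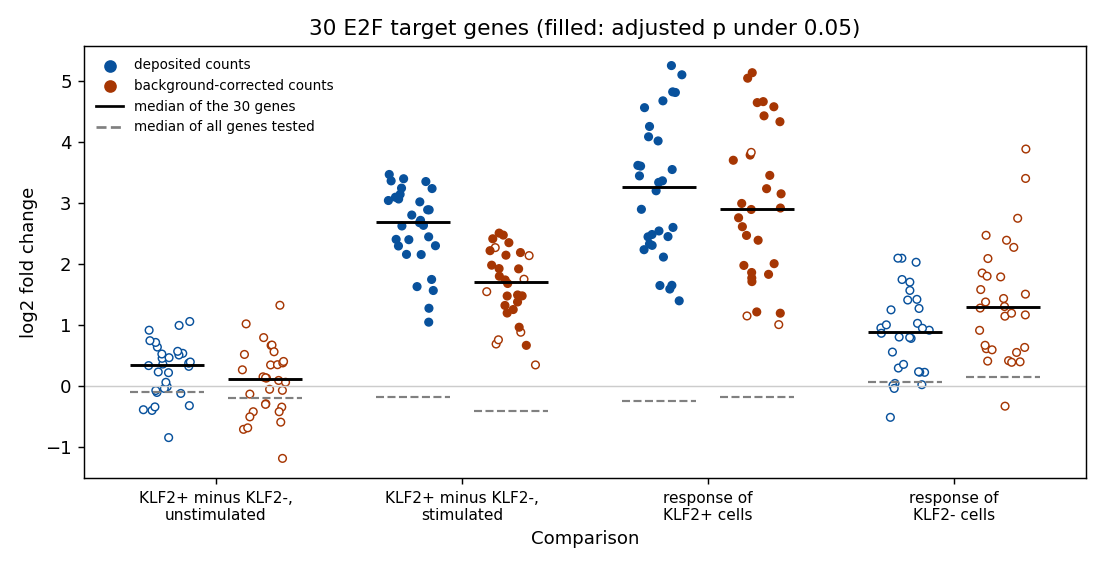
Log2 fold changes (y axis) of the 30 E2F target genes in 4 comparisons (x axis), from the deposited counts (blue) and after background subtraction (brown), filled where the adjusted p was under 0.05. Black bars are the list's medians and dashed bars the medians of all genes tested, and in the response of KLF2+ cells the list's medians are 3.26 and 2.90.

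The genes with profiles most like 4 of the members were found among 9980 tested genes of at least 10 CPM, by the root mean square difference of centred log2 CPM over the 8 libraries. For E2f1 they were Lig1 (0.178), Rrm1 (0.180), Plk4 (0.219), Kif23 (0.244) and Kif20a (0.276). For E2f8 they were Bub1 (0.184), Bub1b (0.233), Top2a (0.240), Kif11 (0.243) and Rad54l (0.260). Rbl1 was nearest to Rnmt (0.051), Leo1 (0.065), Pgam5 (0.069), Slc25a51 (0.071) and Kcmf1 (0.074). Rbl2 was nearest to Hdac5 (0.080), Rmnd5a (0.088), Sumf1 (0.089), Mbd5 (0.091) and Nr3c1 (0.096).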

How the data were processed

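The authors counted reads over exons of RefSeq genes in mm10 with HOMER, without depth adjustment, per the file headers, which gives deposited estimated counts in steps of 0.5. A second deposited table holds TPM, used for levels, ratios and the limma alternatives. The submitters' processing notes name STAR 2.7.9, HOMER 4.11, SAMtools and DESeq2. The sources used here do not state strand settings.

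Counts were rounded, filtered by filterByExpr (19146 of 25124 genes) and fitted for all 8 libraries in edgeR 4.0.16 with TMM, 1 coefficient per group and 4 residual degrees of freedom. The 5 contrasts were tested, and p-values were adjusted over all genes tested. SE is the log2 fold change over the square root of F. For background subtraction, the reads per kb of 1471 olfactory and vomeronasal receptor genes (1696.8 kb) were multiplied by exon length and subtracted, with TMM from genes of at least 50 CPM (15281 genes tested). Other alternatives were DESeq2 1.42.0, limma 3.58.1 on log2(TPM + 1) and log2(TPM + 0.1), total counts, no filter, a replicate block, only the groups compared, and leaving out each library. The fit was also run on counts simulated from a mean profile shared by all libraries, with changes added to a sample of genes. Background that differs between groups was not simulated, so that run cannot tell how such background affects the calls.

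The labels do not say that replicates are separate animals or cultures, so p-values cover only the spread among the libraries sequenced, and that spread may be technical. The members, lists, alternatives and rule for named genes were chosen with earlier results of these data known. Named were all members, up to 4 called genes with the smallest p per list and contrast described, or the most abundant where none was called, and the 5 genes nearest in profile to E2f1, E2f8, Rbl1 and Rbl2. 1 gene that the rule took is not reported here.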

Additional observations from a re-analysis of the deposited data

Results flagged for a closer look

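For 5 members the test of the difference itself found unlike responses in the populations, with the log2 change larger in KLF2+ than in KLF2- cells. The difference was 2.60 for E2f1, 1.03 for E2f2, 1.41 for E2f4, 2.37 for E2f8 and 1.17 for Rb1. None of the 5 remained called with TMM factors from genes of at least 50 CPM or after background subtraction. Relative to the median of all genes, E2f1, E2f2 and Rb1 stood at 2.69, 1.12 and 1.26, and at 2.74, 1.12 and 1.28 on that scaling. These had to be close, as a change of scaling moves all genes nearly alike. After background subtraction they were 2.35, 0.48 and 0.52. The KLF2- stimulated libraries had 35.63 and 37.54 M tags and the lowest shares of them in exons, 12.7% and 7.96%, and the part of this in the differences was not tested.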

How the results depend on the processing

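The calls of E2f2, E2f7 and E2f8 in the KLF2+ response held in all 17 alternatives, and those of E2f1 and E2f3 in 16. Reads near or under background limit E2f7 and E2f8 in unstimulated cells and E2f1, E2f7 and E2f8 in KLF2- stimulated replicate 4. The low exon read numbers of KLF2- stimulated cells limit every comparison with them. Of the member fold changes under alternatives, 534 kept direction and side of the threshold, 99 lost a call, 36 gained one and 69 changed sign. The causes were not tested.

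Between unstimulated populations, the number of members called went from 0 to 1 with factors from genes of at least 50 CPM, with total counts, with background subtraction and in both limma fits. Between stimulated populations, the 6 calls of the first fit were all higher in KLF2+ cells. Background subtraction called 1 member higher and 2 lower, and both limma fits called Rb1 lower (-0.889 and -0.918). Of all 19146 genes, the limma fits with pseudocounts 1 and 0.1 called 1791 and 1776 higher and 12299 and 12433 lower. The number of members called there went from 6 to 3 with background subtraction and in both limma fits. For the KLF2+ response it went from 8 to 3 with background subtraction, and to between 5 and 8 when a library was left out. For the KLF2- response it went from 0 to 1 with DESeq2 and to between 0 and 1 when a library was left out. For the difference in response it went from 5 to 0 with factors from genes of at least 50 CPM, total counts or background subtraction, to 1 in both limma fits, and to between 0 and 6 when a library was left out. Between unstimulated populations DESeq2 called 1148 of all 19146 genes, and the fit of only the compared groups called 828 of 17620. E2F targets called there went from 0 to 1 with DESeq2 and to 3 with only the compared groups, and changed when some libraries were left out. In the KLF2- response they went from 0 to 2 with DESeq2 and to between 0 and 12 when a library was left out. For the difference in response they went from 25 to 11 with factors from genes of at least 50 CPM or total counts, 3 with background subtraction, 12 and 13 in the limma fits with pseudocounts 1 and 0.1, and between 0 and 30 when a library was left out.

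Samples of the populations share replicate numbers within KLF2+ and within KLF2- cells, but the labels do not say that a number marks a shared source. Same-numbered libraries deviated from their group means with a correlation of 0.537 in KLF2+ and 0.087 in KLF2- cells over 19146 genes. With the replicate block, the number of members called was 7 in the KLF2+ response, 2 in the KLF2- response (E2f7 and E2f8) and 8 for the difference in response. E2F targets called were 13 in the KLF2- response with the replicate block. Over all genes, the block called 10851 in the KLF2+ response, 770 in the KLF2- response and 10857 for the difference, against 7096, 0 and 6855 without it.

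Signs also changed as follows, on the log2 scale. Between unstimulated populations (KLF2+ minus KLF2-), E2f1 went from 0.03 to -0.19 with factors from genes of at least 50 CPM, -0.23 with total counts, -0.075 with background subtraction, -0.23 and -0.30 in the limma fits and between -0.18 and 0.29 when a library was left out. E2f2 went from 0.35 to -0.005 and -0.011 in the limma fits. E2f3 went from -0.48 to between -1.61 and 0.21 when a library was left out. E2f4 went from 0.31 to -0.008 with background subtraction and -0.056 in both limma fits. E2f8 went from -0.06 to 0.049 with DESeq2, 0.65 with background subtraction and between -0.27 and 0.21 when a library was left out. Rbl1 went from 0.36 to -0.022 and -0.023 in the limma fits.

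Between stimulated populations, E2f2 went from 1.38 to -0.052 and -0.056 in the limma fits, and E2f3 from 1.16 to -0.019 with total counts and -0.21 and -0.24 in the limma fits. E2f7 went from 1.15 to -0.003 with factors from genes of at least 50 CPM, -0.026 with total counts and -0.20 and -0.25 in the limma fits. Rb1 went from 0.52 to -0.66 with factors from genes of at least 50 CPM, -0.68 with total counts, -0.67 with background subtraction and -0.889 and -0.918 in the limma fits. Rbl1 went from 1.18 to -0.005 with total counts and -0.23 and -0.24 in the limma fits. Rbl2 went from -0.004 to 0.009 with DESeq2, 0.072 without a filter and between -0.022 and 0.085 when a library was left out.

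In the KLF2+ response, Rb1 went from 0.56 to -0.038 with total counts and -0.12 and -0.12 in the limma fits. In the KLF2- response, E2f1 (0.70) lay between -0.69 and 1.35 when a library was left out. There Rbl1 went from -0.09 to 0.32 with factors from genes of at least 50 CPM, 0.21 with total counts, 0.27 with background subtraction, 0.26 and 0.28 in the limma fits and between -0.41 and 0.13 when a library was left out. Rbl2 went from -0.36 to 0.067 with factors from genes of at least 50 CPM, 0.092 with background subtraction and 0.033 and 0.034 in the limma fits. For the difference in response, E2f2 went from 1.03 to -0.047 and -0.045 in the limma fits. Rbl1 went from 0.82 to -0.087 with factors from genes of at least 50 CPM, -0.065 with total counts and -0.21 and -0.21 in the limma fits. Rbl2 went from 0.30 to -0.65 with factors from genes of at least 50 CPM, -0.63 with total counts, -0.64 with background subtraction and -0.76 and -0.77 in the limma fits.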
